A study of Mus musculus with 42 samples.

Results

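GM-CSF blockade was examined by comparing 9 tumors from mice given aPD1 + aGM-CSF with 6 tumors from mice given aPD1 and no GM-CSF antibody, 15 of the 42 tumors profiled. The tumors were taken by the treatment that the sample labels name for each. All tumors were MC38, a mouse colon carcinoma cell line, grown under the skin of female CC075/UncJ x C57BL/6J F1 mice (CC75xB6) aged 8 to 12 weeks after injection of the cells. The GM-CSF antibody (100 μg, intraperitoneal) was given from engraftment onward at intervals of 3 days until the tumor measured 75 to 110 mm3, and the aPD1 group received isotype antibody in its place. Mice of both groups then received a single dose of 200 μg of aPD1, and the tumors were taken 48 hours later. The other groups were a group given isotype antibodies alone (n = 5), aPD1 + aIL2RB (11 tumors) and aPD1 + aGM-CSF + aIL2RB (also 11 tumors). The antibody aIL2RB binds the β chain shared by the receptors for IL-2 and IL-15 and was dosed at 200 μg. The host was a single F1 cross, GM-CSF was blocked in the whole animal, and each profile was made from unsorted tumor tissue.

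GM-CSF, encoded by Csf2, is a cytokine made by activated T cells, NK cells and some tumor and stromal cells. It binds a receptor made of a specific α chain (Csf2ra) and a common β chain (Csf2rb) that signals through JAK2 and STAT5, and it acts mainly on monocytes, macrophages, dendritic cells and granulocytes. In tumors it is known both for the maturation of antigen-presenting cells and for the support of suppressive myeloid cells. PD-1 antibody releases T cells from an inhibitory signal, and the comparison asks which transcripts of the aPD1-treated tumor were lower or higher when GM-CSF had been neutralized beforehand.

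Expected counts per tumor summed to between 15109227 and 24101674 over the 15 tumors, and 5 ribosomal RNA genes took 4.57% to 17.9% of them in aPD1 (median 9.01%) and 3.07% to 10.9% in aPD1 + aGM-CSF tumors (median 6.55%). Without these genes 2299 genes were called, beside 2289 with them. The tumors were also examined in 2 sets along their replicate numbers, a division that the labels do not name. It was taken from an earlier look at these same data. Deviations from the group means had a median correlation of -0.021 between tumors of the same set and -0.13 between tumors of different sets. Since the sets were chosen from these data, this difference is not independent evidence for them. The first set held aPD1 replicates 1 to 3 and aPD1 + aGM-CSF replicates 1 to 5, and the second the remaining 3 and 4 tumors. Mitochondrial mRNA took 2.74% to 3.53% of counts in aPD1 and 2.82% to 3.73% in aPD1 + aGM-CSF tumors of the first set, and 2.36% to 2.45% against 2.55% to 3.14% in the second, where the groups did not overlap, and its part in the results was not tested. Levels are given as counts scaled to a common library total (CPM) after scaling by the trimmed mean of M-values (TMM), which compares tumors within a gene and not genes with each other. Fold changes are log2 values for aPD1 + aGM-CSF against aPD1, negative where the level was lower with GM-CSF blockade. Adjusted p-values come from edgeR's quasi-likelihood test, and a gene was said to rise or fall where the adjusted p was under 0.05. Counts without another fit named come from the model of all 42 tumors scaled by TMM. The difference between sets was tested in a separate model of these tumors with group and set combined. The labels call the tumors of a group biological replicates and do not say which mouse each came from.

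Of 16932 genes tested with TMM scaling, 807 (4.77%) rose and 1482 (8.75%) fell with GM-CSF blockade, 13.5% in all. Scaling by library size alone turned this division around, with 1402 genes higher and 1120 lower. With TMM the falls were larger, since 403 of the genes that fell and 27 of those that rose changed by more than 1 on the log2 scale. The median change was -0.68 among the genes that fell and 0.30 among those that rose, beside 0.0066 over all tested genes. In 373 genes (2.2%) every aPD1 + aGM-CSF tumor was below every aPD1 tumor, and in 111 (0.656%) every one was above. Of the 2289 genes called, 1062 kept an adjusted p under 0.05 in each of the 15 fits that left out a tumor. Fitted alone, the first set gave 27 called genes and the second 2736. The call rate depended on the tumors given aPD1 alone, as leaving out aPD1 replicate 4 brought the count of called genes to 1199 and leaving out aPD1 replicate 2 brought it to 2967.

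**Figure D1:**
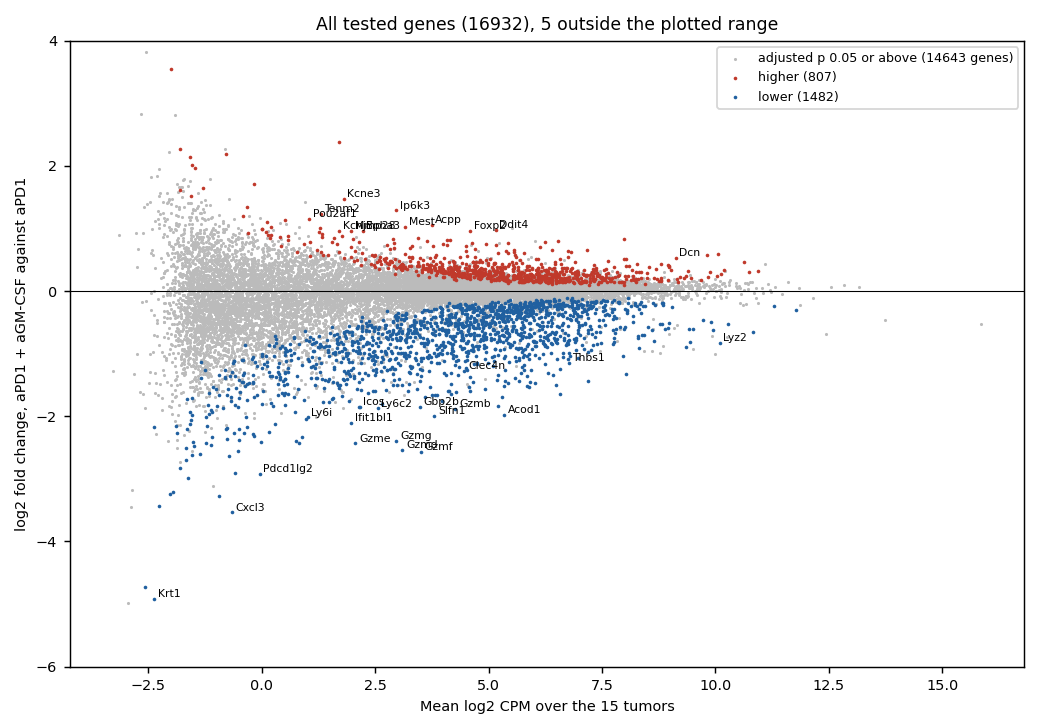
Each point is 1 of the 16932 tested genes, with its mean log2 CPM over the 15 tumors on the x axis and its log2 fold change in aPD1 + aGM-CSF against aPD1 tumors on the y axis. Red points are the 807 genes that rose, blue points the 1482 that fell and grey points the others. Beyond a log2 fold change of 1 in size there are 403 blue and 27 red points, and 5 genes lie outside the plotted range.

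Receptor transcripts of the targeted pathway fell under blockade. Csf2 was close to absent at this depth and was not kept for testing: it had 0 to 13 counts per tumor (median 3, 28 in all) in the aPD1 group and 0 to 4 counts (median 0, 9 in all) in the aPD1 + aGM-CSF group, with 0 counts in 5 of its 9 tumors, where a count of 0 still allows up to 3. Csf2ra, the ligand-specific chain, was at 26.4 to 52.9 CPM (median 39.7) in aPD1 tumors and 20.7 to 29.3 CPM (median 24.4) in aPD1 + aGM-CSF tumors, ranges that overlapped at their ends, with a log2 change of -0.71 (SE 0.18, adjusted p = 0.00565). The common chain Csf2rb was at 52.8 to 97.7 CPM (median 73.7) and 29.5 to 52.2 CPM (median 37.9), without overlap, and changed by -0.92 (SE 0.20, adjusted p = 0.00156). Its neighbor Csf2rb2, which encodes the IL-3-specific β chain, changed by -1.12 (SE 0.26, adjusted p = 0.0028). These near-identical genes lie on chromosome 15 (chr15:78282507-78353847 in GRCm38 for the pair), and reads may have been divided between them, so the value of either is uncertain.

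Among 18 tested genes of GM-CSF receptor and STAT5 signaling, 9 fell and 0 rose, 50% called against 13.5% of all genes, with a median of -0.44. Socs2, a STAT5-induced inhibitor of cytokine signaling, was at 1.98 to 4.78 CPM (median 3.02) in aPD1 tumors and 1.07 to 2.30 CPM (median 1.48) under blockade, with some overlap, and fell, with a change of -1.05 (SE 0.22, adjusted p = 0.00154). Socs3, a related inhibitor induced by STAT3, ranged over 42.9 to 73.1 CPM and 36.1 to 49.97 CPM and changed by -0.62 (SE 0.17, adjusted p = 0.0134). Lyn, a Src-family kinase used by the β chain, was at 132 to 230.5 CPM and 115 to 136 CPM and changed by -0.53 (SE 0.12, adjusted p = 0.00228). The 9 members that did not pass had log2 fold changes from -0.34 to 0.10. Without aPD1 replicate 4, 6 members were called.

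Genes that GM-CSF is known to induce in myeloid cells gave a larger share of falls. Of 22 tested members of this list, 16 fell and 0 rose, 72.7% called, with a median of -1.23. The 6 that did not pass had values from -1.83 to -0.04. Clec4n (Dectin-2, a receptor for fungal mannans on myeloid cells) was the member with the smallest p. It was at 21.2 to 59.3 CPM (median 36.3) in aPD1 tumors and 13.1 to 18.97 CPM (median 15.8) in aPD1 + aGM-CSF tumors, so that every blocked tumor was below every aPD1 tumor, with a log2 change of -1.27 (SE 0.17, adjusted p = 2.39e-05). This gene kept its call in both sets, at -1.44 in the first and -1.11 in the second, and in every fit that left out a tumor.

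Other members of the list covered metabolism, pattern recognition and antigen presentation. Slc7a2, a transporter that brings cationic amino acids into macrophages, was at 29.9 to 69.02 CPM (median 41.1) in aPD1 and 12.6 to 23.2 CPM (median 14.6) in aPD1 + aGM-CSF tumors, without overlap, and changed by -1.59 (SE 0.37, adjusted p = 0.00335). Fabp5, a fatty acid-binding protein, was at 25.3 to 52.9 CPM (median 35.2) and 13.9 to 21.9 CPM (median 20.8), with replicate 4 the lowest blocked tumor, and changed by -0.90 (SE 0.13, adjusted p = 4.72e-05). The groups did not overlap for this gene. Clec7a (Dectin-1, the receptor for β-glucan) changed by -1.46 (SE 0.33, adjusted p = 0.00221) and Ccl22, a dendritic cell chemokine that attracts regulatory T cells, by -1.78 (SE 0.47, adjusted p = 0.00813), and neither overlapped between groups. Cd86, a costimulatory ligand for T cells, was at 22.1 to 37 CPM in aPD1 tumors and 12.3 to 21.3 CPM under blockade, without overlap, and changed by -0.78 (SE 0.20, adjusted p = 0.00572). Il1rn, the IL-1 receptor antagonist, changed by -1.69 (SE 0.35, adjusted p = 0.0011), Irf4, a transcription factor of GM-CSF-differentiated cells, by -1.45 (SE 0.38, adjusted p = 0.00763) and Spi1, which encodes the myeloid factor PU.1, by -0.71 (SE 0.13, adjusted p = 0.000353), each with some overlap. Without aPD1 replicate 4, 12 members of the list were called.

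**Figure D2:**
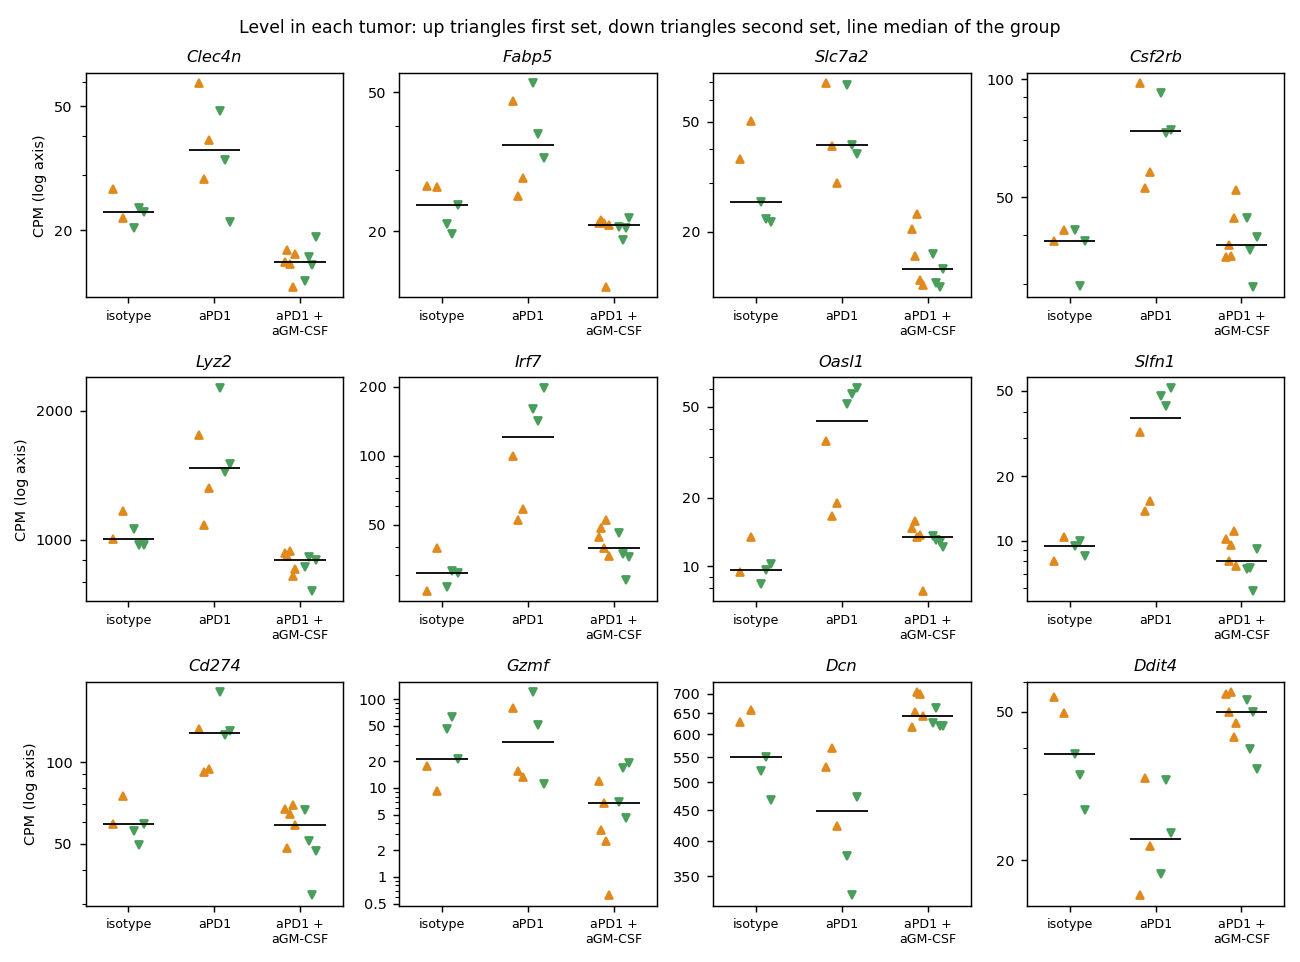
Level of 12 genes in each isotype, aPD1 and aPD1 + aGM-CSF tumor, as CPM on a log axis, with up triangles for the first set, down triangles for the second and a line at the median of each group. The aPD1 + aGM-CSF tumors are below every aPD1 tumor for Clec4n, Fabp5, Slc7a2, Csf2rb, Lyz2, Oasl1, Slfn1 and Cd274 and above every one for Dcn and Ddit4, while the groups overlap for Irf7 and Gzmf.

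Of 16 tested macrophage markers, 10 fell and 0 rose (median -0.61), and the summed level of the list was 3678 to 7002 CPM in aPD1 tumors and 2968 to 3470 CPM in aPD1 + aGM-CSF tumors, with no overlap. Fewer cells of a type and less RNA of these genes per cell cannot be told apart in tissue profiles. Lyz2 (lysozyme) was at 1086 to 2265 CPM (median 1471) in aPD1 and 759 to 942 CPM (median 897) in blocked tumors, without overlap, a change of -0.83 (SE 0.12, adjusted p = 2.92e-05) that passed in both sets. C1qa, a complement component made by tissue macrophages, was at 337 to 595 CPM and 245 to 316 CPM, without overlap, and changed by -0.71 (SE 0.13, adjusted p = 0.000395). Fcgr1, the high-affinity receptor for IgG, showed a larger difference, being at 91.2 to 209.7 CPM in aPD1 and 53.9 to 80.7 CPM in blocked tumors, without overlap, with a change of -1.09 (SE 0.20, adjusted p = 0.000349). Adgre1 (F4/80) changed by -0.67 (SE 0.14, adjusted p = 0.00124), Cd68 by -0.70 (SE 0.13, adjusted p = 0.000311), Csf1r, the receptor for the macrophage growth factor CSF1, by -0.49 (SE 0.088, adjusted p = 0.000276) and Mrc1 (CD206) by -0.49 (SE 0.13, adjusted p = 0.00724). The 6 markers that did not pass lay between -0.80 and 0.01.

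Monocyte and granulocyte markers did not all move the same way. Of 11 tested monocyte markers, 6 fell and 1 rose. Ly6c2, which marks inflammatory monocytes and also activated T cells, was at 6.18 to 17.9 CPM (median 16.2) in aPD1 and 2.54 to 5.96 CPM (median 3.22) in blocked tumors, without overlap, and changed by -1.88 (SE 0.52, adjusted p = 0.0114). Ms4a4c, an interferon-inducible gene of monocytes, changed by -1.34 (SE 0.24, adjusted p = 0.000276), Plac8 by -1.53 (SE 0.34, adjusted p = 0.00199) and Itgam (CD11b) by -0.73 (SE 0.16, adjusted p = 0.00144). The member that rose was Fn1 (fibronectin), at 1019.8 to 1545 CPM (median 1373) and 1468 to 2065 CPM (median 1910.4), a change of 0.46 (SE 0.11, adjusted p = 0.00364), and its high level also set the summed level of the monocyte list, which was 1583 to 2561 CPM in aPD1 and 1874 to 2537 CPM in aPD1 + aGM-CSF tumors.

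Of 9 tested neutrophil markers, 5 fell and 1 rose, while 5 others of the 14 listed, Retnlg, Ly6g, Camp, Ngp and Mpo, were too low to be tested. Csf3r, the G-CSF receptor, was at 16.9 to 42.2 CPM (median 30.3) in aPD1 and 8.56 to 16.9 CPM (median 11.3) in blocked tumors, without overlap, and changed by -1.35 (SE 0.25, adjusted p = 0.000374). S100a9 (0.120 to 2.11 CPM and 0 to 0.335 CPM) and Cxcr2 (0.375 to 2.21 CPM and 0 to 0.601 CPM) were at low levels, with changes of -2.62 (SE 0.70, adjusted p = 0.00897) and -1.93 (SE 0.45, adjusted p = 0.00348). Mmp9, a matrix-degrading protease that macrophages and tumor cells also make, went the other way, being at 103 to 264 CPM (median 179) in aPD1 and 259 to 411 CPM (median 322) in aPD1 + aGM-CSF tumors, a change of 0.83 (SE 0.19, adjusted p = 0.00235). Its level gave the summed neutrophil list the opposite direction, at 169 to 308 CPM against 281 to 436 CPM.

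Dendritic cell markers were lower in part. Of 10 tested markers of conventional type 1 dendritic cells (cDC1) 4 fell, of 10 markers of type 2 and monocyte-derived dendritic cells 5 fell and 1 rose, of 11 markers of mature dendritic cells 5 fell, and of 7 plasmacytoid markers 2 fell. In this order 40%, 60%, 45.5% and 28.6% were called, against 13.5% of all genes. Irf8, which directs cDC1 development and is also induced by IFN-γ, was at 61.1 to 111 CPM (median 87.7) in aPD1 and 41.9 to 60.6 CPM (median 48.4) in blocked tumors, just short of touching, and changed by -0.72 (SE 0.18, adjusted p = 0.0056). Sirpa, the receptor for CD47 on myeloid cells, was at 259.7 to 375 CPM and 199 to 238 CPM, without overlap, and changed by -0.57 (SE 0.12, adjusted p = 0.00139). Clec10a, a lectin of type 2 dendritic cells, changed by -1.42 (SE 0.36, adjusted p = 0.00693), Cd40, which receives help from T cells, by -1.07 (SE 0.29, adjusted p = 0.0115) and the migration receptor Ccr7 by -1.39 (SE 0.35, adjusted p = 0.00581). Zbtb46, a transcription factor of conventional dendritic cells, was at 10.8 to 13.8 CPM in aPD1 and 12.6 to 18.2 CPM in blocked tumors and rose, with a change of 0.37 (SE 0.089, adjusted p = 0.00438). Siglech, a plasmacytoid lectin, was at 0.796 to 2.36 CPM and 0.107 to 0.802 CPM and changed by -1.45 (SE 0.40, adjusted p = 0.0109), and this call was lost without aPD1 replicate 1 (adjusted p = 0.0522). Without aPD1 replicate 4 or 6 the cDC1 list held 1 called gene, and the plasmacytoid list held 1 to 2 over the fits that left out a tumor.

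The largest falls by the naming rule were a block of granzymes, the proteases that cytotoxic lymphocytes release into target cells. Gzmf was at 11.1 to 120.5 CPM (median 33.04) in aPD1 and 0.616 to 19.2 CPM (median 6.78) in aPD1 + aGM-CSF tumors, and aPD1 replicates 2, 3 and 6 were within the range of the blocked tumors. Its change was -2.58 (SE 0.61, adjusted p = 0.00349), beside -2.53 (SE 0.60, adjusted p = 0.00353) for Gzmd, -2.44 (SE 0.67, adjusted p = 0.0119) for Gzme and -2.40 (SE 0.52, adjusted p = 0.00176) for Gzmg. These genes lie side by side with Gzmb and Gzmc on chromosome 14 (chr14:56117626-56262260 in GRCm38) and are close in sequence, so reads may have been divided among them. Gzmb, the granzyme most used to mark cytotoxic T cells, was at 17.6 to 87.05 CPM (median 45.8) and 4.93 to 17.2 CPM (median 13.1), just without overlap, and changed by -1.89 (SE 0.59, adjusted p = 0.0273). Leaving out aPD1 replicate 4 ended the calls of Gzme (adjusted p = 0.0842) and Gzmb (0.108, and 0.0565 without aPD1 replicate 6), and DESeq2 gave 0.0706 and 0.0621 for these.

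Of 15 tested cytotoxic effector genes 9 fell and 0 rose (median -1.51), and 3 were called without aPD1 replicate 4. Summed over this list, levels were 117 to 587 CPM in aPD1 and 29.0 to 109 CPM in blocked tumors. Prf1 (perforin) was at 9.54 to 34.6 CPM and 3.14 to 8.44 CPM without overlap but did not pass, at -1.45 (SE 0.61, adjusted p = 0.106). Ifng, the gene for IFN-γ, was at 3.23 to 6.08 CPM (median 4.25) and 0.740 to 2.64 CPM (median 1.30), also without overlap, and did not pass, at -1.51 (SE 0.53, adjusted p = 0.0514). When the 15 tumors were fitted without the other groups, 14 genes of the list were called, with adjusted p = 0.000437 for Prf1 and 0.000271 for Ifng in edgeR.

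Of 15 T cell markers, 6 fell and 0 rose, and the 9 that did not pass lay between -1.33 and -0.99. Their summed level was 142 to 272 CPM in aPD1 tumors and 58.8 to 140 CPM in aPD1 + aGM-CSF tumors, without overlap. Icos, an inducible costimulator of activated T cells, was at 6.58 to 14.2 CPM (median 10.1) and 1.39 to 5.33 CPM (median 2.65), without overlap, and changed by -1.85 (SE 0.50, adjusted p = 0.0103). Thy1 was at 27.3 to 56.1 CPM and 18.7 to 30.3 CPM and changed by -0.91 (SE 0.23, adjusted p = 0.0064). Cd3e and Cd8a, subunits of the T cell receptor complex and coreceptor, were at 6.77 to 15.1 CPM (median 10.4) and 23.7 to 48.2 CPM (median 29.9) in aPD1 tumors and at 3.44 to 9.59 CPM (median 4.51) and 8.51 to 28.3 CPM (median 13.97) under blockade, and did not pass at -1.13 (SE 0.49, adjusted p = 0.118) and -1.11 (SE 0.52, adjusted p = 0.154). The count moved with the tumors and the model. It was 2 without aPD1 replicate 4 or 6 and at most 6 without any other tumor, 3 in DESeq2, 0 in the first set alone and 14 in the second, and it was 14 in edgeR's fit of the 15 tumors alone, where Cd3e (adjusted p = 0.00173) and Cd8a (0.00122) passed, and 15 with the set as a term.

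Among 10 checkpoint and exhaustion genes, 5 fell, with 3 called without aPD1 replicate 1 or 4 and up to 7 without another tumor. Havcr2 (TIM-3, found on exhausted T cells and on myeloid cells) was at 42.01 to 68.9 CPM (median 46.6) in aPD1 and 24.7 to 37.6 CPM (median 28.8) in blocked tumors, without overlap, and changed by -0.81 (SE 0.18, adjusted p = 0.00231). Tnfrsf9 (4-1BB), a marker of recently activated T cells, changed by -1.07 (SE 0.26, adjusted p = 0.00439), without overlap. Pdcd1, which encodes PD-1 itself, was at 7.20 to 17.8 CPM and 4.30 to 10.6 CPM and did not pass, at -1.004 (SE 0.36, adjusted p = 0.0525). Of 8 regulatory T cell markers 3 fell, 37.5% called against 13.5% of all genes. Among them were Il2ra (the IL-2 receptor α chain) at -1.34 (SE 0.36, adjusted p = 0.0106) and Tnfrsf4 (OX40) at -1.18 (SE 0.34, adjusted p = 0.0148), whereas Foxp3 did not pass at -1.09 (SE 0.39, adjusted p = 0.0515). In the fit of the 15 tumors alone 8 checkpoint genes, 5 regulatory T cell markers and 5 NK cell markers were called, and Pdcd1 (edgeR adjusted p = 0.00108) and Foxp3 (0.0304) passed. NK cell markers summed to 89.8 to 124 CPM in aPD1 and 56.6 to 74.6 CPM in blocked tumors, without overlap. Of 10 tested 1 fell, 10% called and so no more than the 13.5% of all genes. It was the activating receptor gene Klrk1, which changed by -1.30 (SE 0.43, adjusted p = 0.037), a call that was lost in 9 of the 15 fits that left out a tumor. None of 8 B and plasma cell markers passed in the model of all 42 tumors or in DESeq2 (median -0.67), while 1 passed without blocked replicate 5, with the set as a term, in the second set alone and in the fit of the 15 tumors alone. For Igkc, the immunoglobulin κ constant region, the log2 fold change was -1.59 (SE 0.58, adjusted p = 0.0591).

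Among the 39 lists, the type I interferon-stimulated genes had the highest share of members lower. Of 28 type I interferon-stimulated genes 27 fell and 0 rose, 96.4% called, with a median of -0.96, and 26 of them kept the call in every fit that left out a tumor. The remaining member had a log2 fold change of -0.04. Oasl1, an antiviral 2′-5′ oligoadenylate synthetase-like protein, was at 16.7 to 60.7 CPM (median 43.4) in aPD1 and 7.77 to 15.8 CPM (median 13.5) in aPD1 + aGM-CSF tumors, without overlap, and fell, with a change of -1.62 (SE 0.23, adjusted p = 3.75e-05). Irf7, which amplifies type I interferon production, was at 52.4 to 198 CPM (median 121) and 28.5 to 52.6 CPM (median 39.4), with 1 aPD1 tumor of the first set just inside the range of the blocked tumors, and fell, with a change of -1.53 (SE 0.24, adjusted p = 8.3e-05). The RNA sensors of the oligoadenylate synthetase family changed in the same direction, Oas1a by -1.04 (SE 0.16, adjusted p = 6.96e-05) and Oas3 by -1.57 (SE 0.27, adjusted p = 0.000219). Isg15, a ubiquitin-like modifier, changed by -1.03 (SE 0.18, adjusted p = 0.000246) and the dynamin-like GTPase gene Mx1 by -1.38 (SE 0.23, adjusted p = 0.000171).

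The estimates were larger in the second set. The median of the list was -0.39 in the first set and -1.38 in the second, and Oasl1 was at -0.85 and -2.14, Irf7 at -0.66 and -2.19 and Oas3 at -0.65 and -2.26. No member of the list passed in the first set alone, and 27 did in the second. The test of the difference between sets called 1 gene among all 16932 (0.00591%), which was lower in the second set, Galnt15, a mucin-type glycosyltransferase gene (first set 0.43, second set -2.08, adjusted p = 0.0268), and no gene of the lists.

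Ifit1bl1, a member of the interferon-induced IFIT family, had the largest fall outside the granzymes by the naming rule, at 2.41 to 22.5 CPM (median 10.2) in aPD1 and 1.05 to 3.52 CPM (median 2.47) in blocked tumors, with a change of -2.11 (SE 0.41, adjusted p = 0.000543) and overlap through aPD1 replicate 3. The Schlafen genes, interferon-induced regulators of T cell quiescence and viral replication that lie together on chromosome 11 (chr11:82951349-83215154 in GRCm38), fell in 6 of 8 tested members and in no case rose. Slfn1 was at 13.7 to 51.7 CPM (median 37.3) in aPD1 and 5.81 to 11.1 CPM (median 8.08) in blocked tumors, without overlap, a change of -1.99 (SE 0.31, adjusted p = 8.3e-05). Slfn4, which marks myeloid cells, changed by -1.65 (SE 0.30, adjusted p = 0.000308), Slfn2 by -1.27 (SE 0.20, adjusted p = 0.000109), Slfn5 by -1.30 (SE 0.20, adjusted p = 8.3e-05) and Slfn8 by -1.04 (SE 0.18, adjusted p = 0.00025). All 6 calls held in each fit that left out a tumor.

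Promoters of the genes that fell were searched for the core letters of elements through which interferons act. The interferon-stimulated response element (ISRE) was searched as GAAANNGAAA and the IFN-γ-activated site (GAS) as TTCNNNGAA, on both strands of the 250 bases before each transcription start listed by RefSeq for GRCm38.p6. An ISRE match was present for 3.42% of the 11465 tested genes that had a promoter entry, for 8.45% of the 1124 that fell and for 3.33% of the 600 that rose. It was present for 10 of 20 matched type I interferon-stimulated genes, 13 of 26 IFN-γ response genes and 3 of 7 Schlafen genes, and for 0 of 15 GM-CSF-responsive myeloid genes. A GAS match was present for 7.28% of tested genes, 9.79% of those that fell and 7.33% of those that rose. By list it was present for 3 of 20 type I interferon-stimulated genes and 11 of 26 IFN-γ response genes. It was found for 0 of 7 Schlafen genes and 1 of 15 GM-CSF-responsive myeloid genes. These shares describe letters in a window, and a match is not a bound site.

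The upstream windows of 5 genes that fell are printed because they hold ISRE matches and cover an antiviral modifier, both oligoadenylate synthetases, a guanylate-binding protein and the IFIT member with the largest fall. A sixth, Fgl2, is printed for a GAS match without an ISRE. Each runs 5′ to 3′ on the strand of the gene and ends at the base before the start, with matches on either strand in capitals. Positions count back from the start, with the base before it at -1, and give the first base of the match. In Isg15 (chr4:156200819-156201068, minus strand) overlapping ISRE matches begin at -78, -72 and -66, and in Oas1a (chr5:120907526-120907775, minus strand) they begin at -20 and -14, with a GAS match at -98. Oas3 (chr5:120777660-120777909, minus strand) has an ISRE match at -75, Gbp2b (chr3:142594597-142594846, plus strand) at -137 and Ifit1bl1 (chr19:34601969-34602218, minus strand) at -104, and Fgl2 (chr5:21372423-21372672, plus strand) has a GAS match at -36.
Isg15: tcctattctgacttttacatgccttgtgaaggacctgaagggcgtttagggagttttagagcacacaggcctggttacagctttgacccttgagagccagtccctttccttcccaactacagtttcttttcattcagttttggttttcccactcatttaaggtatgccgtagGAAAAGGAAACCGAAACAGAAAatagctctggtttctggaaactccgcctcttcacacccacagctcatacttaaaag
Oas1a: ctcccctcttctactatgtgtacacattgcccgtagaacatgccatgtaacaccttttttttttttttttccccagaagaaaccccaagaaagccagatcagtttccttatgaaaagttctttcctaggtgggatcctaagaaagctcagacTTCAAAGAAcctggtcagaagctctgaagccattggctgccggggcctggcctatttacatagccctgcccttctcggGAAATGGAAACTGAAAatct
Oas3: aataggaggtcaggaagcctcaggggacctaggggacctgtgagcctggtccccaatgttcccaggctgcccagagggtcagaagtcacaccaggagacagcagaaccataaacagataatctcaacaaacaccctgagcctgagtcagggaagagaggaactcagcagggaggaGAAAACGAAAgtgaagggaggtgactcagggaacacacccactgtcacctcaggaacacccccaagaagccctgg
Gbp2b: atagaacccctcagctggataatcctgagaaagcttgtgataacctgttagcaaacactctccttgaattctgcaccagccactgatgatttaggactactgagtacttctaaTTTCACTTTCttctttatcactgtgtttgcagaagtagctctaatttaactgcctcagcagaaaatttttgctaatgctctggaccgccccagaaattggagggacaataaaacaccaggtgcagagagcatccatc
Ifit1bl1: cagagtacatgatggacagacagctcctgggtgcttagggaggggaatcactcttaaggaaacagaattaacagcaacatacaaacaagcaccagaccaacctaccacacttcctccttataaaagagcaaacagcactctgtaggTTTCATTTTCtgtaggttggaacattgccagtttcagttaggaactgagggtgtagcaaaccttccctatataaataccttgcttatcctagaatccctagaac
Fgl2: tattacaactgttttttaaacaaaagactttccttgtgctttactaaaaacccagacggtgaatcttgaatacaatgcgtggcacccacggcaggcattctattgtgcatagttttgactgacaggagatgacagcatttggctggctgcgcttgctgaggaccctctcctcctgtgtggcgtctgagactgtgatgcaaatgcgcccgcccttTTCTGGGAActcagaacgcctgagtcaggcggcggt

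Genes of the IFN-γ response fell in 20 of 36 tested members and rose in none, with a median of -0.86. The 16 members that did not pass lay between -1.20 and -0.10, and the summed list was at 5067 to 8175 CPM in aPD1 and 2872 to 4792 CPM in blocked tumors, without overlap. Gbp2b, a guanylate-binding GTPase of cell-autonomous immunity, was at 13.2 to 41.5 CPM (median 25.7) in aPD1 and 3.003 to 12.7 CPM (median 6.99) in blocked tumors, without overlap, and changed by -1.85 (SE 0.51, adjusted p = 0.0123), a call lost without aPD1 replicate 4 (adjusted p = 0.0524). Cd274, which encodes the PD-1 ligand PD-L1, was at 92.2 to 181 CPM (median 128) and 32.3 to 69.3 CPM (median 58.8), without overlap, and fell, with a change of -1.16 (SE 0.28, adjusted p = 0.00375). Cxcl10, a chemokine for activated T cells, was at 163 to 317 CPM and 88.8 to 153 CPM, without overlap, and fell, with a change of -0.94 (SE 0.22, adjusted p = 0.00342). Fgl2, a secreted immunoregulatory protein, changed by -1.43 (SE 0.38, adjusted p = 0.00862) and Il18bp, a decoy receptor for IL-18, by -1.49 (SE 0.31, adjusted p = 0.00122). Leaving out aPD1 replicate 4 gave 10 called members, while a fit of the 15 tumors alone gave 31 and the set as a term 28. In the first set alone 0 were called and in the second 27. Pdcd1lg2, the gene for the second PD-1 ligand PD-L2 and a GM-CSF-responsive gene in dendritic cells, was at 2.16 to 5.15 CPM (median 2.52) and 0.0479 to 0.799 CPM (median 0.427), without overlap, a change of -2.92 (SE 0.59, adjusted p = 0.000913) at low levels.

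Among 12 tested interferons and interferon receptors 4 fell, and Il27, a cytokine that myeloid cells make under interferon, was the member with the smallest p, at 0.900 to 2.44 CPM in aPD1 and 0.247 to 1.10 CPM under blockade, with a change of -1.45 (SE 0.39, adjusted p = 0.0091). Without aPD1 replicate 4 that list held 1 called gene, and with library size scaling 2. Of 12 MHC class II genes 5 fell, and 3 to 5 were called over the fits that left out a tumor. These included Ctss, the protease that trims the invariant chain, at 700.3 to 1320.2 CPM and 449 to 633 CPM, without overlap, with a change of -0.82 (SE 0.18, adjusted p = 0.00164), and H2-DMa, which loads peptides, at -0.85 (SE 0.22, adjusted p = 0.00803). Ifi30, a thiol reductase of antigen processing, was at 97.5 to 168 CPM (median 138) and 77.8 to 92.6 CPM (median 86.2), without overlap, and changed by -0.67 (SE 0.12, adjusted p = 0.00025). The whole class II list summed to 3546 to 5896 CPM in aPD1 and 1569 to 3449 CPM in blocked tumors, without overlap. Cd74, the invariant chain, and H2-Aa, a class II chain, did not pass in the model of all 42 tumors, with Cd74 at 1201 to 1956 CPM and 451 to 1167 CPM and a log2 change of -1.003 (SE 0.47, adjusted p = 0.154), and H2-Aa at 460.4 to 819.7 CPM and 189 to 516 CPM and a log2 change of -0.98 (SE 0.47, adjusted p = 0.163). These non-calls depended on the model, since 10 of the 12 genes were called in edgeR's fit of the 15 tumors alone, Cd74 (adjusted p = 0.000549) and H2-Aa (0.00116) among them, and 9 with the set as a term. Of 19 MHC class I genes 3 fell, 15.8% called and so close to the 13.5% of all genes, led by the proteasome activator Psme1 at -0.25 (SE 0.068, adjusted p = 0.00985). No call of that list was left without aPD1 replicate 4, while 8 were made in the fit of the 15 tumors alone.

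Of 14 tested CC chemokines and receptors, 11 fell and 0 rose (median -1.10). Ccl9, a monocyte-attracting chemokine, was at 33.3 to 123 CPM (median 65.9) in aPD1 and 24.3 to 39.1 CPM (median 28.5) in blocked tumors, with some overlap, and changed by -1.25 (SE 0.21, adjusted p = 0.000142). Its neighbor Ccl6 changed by -1.41 (SE 0.31, adjusted p = 0.00174), Ccl8 by -1.76 (SE 0.41, adjusted p = 0.00349) and Ccl7, a ligand of CCR2, by -1.16 (SE 0.28, adjusted p = 0.0049).

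Of 21 NF-κB-dependent cytokines and enzymes 9 fell and 0 rose, and 14 were called with the set as a term. The member with the smallest p was Cxcl3, a ligand for the neutrophil receptor CXCR2, at 0.360 to 5.64 CPM (median 3.11) in aPD1 and 0 to 0.575 CPM (median 0.243) in aPD1 + aGM-CSF tumors, with some overlap, and its fitted change of -3.54 (SE 0.69, adjusted p = 0.000623) rests on low counts. Cxcl2 fell, with a change of -1.77 (SE 0.46, adjusted p = 0.00731). Tnf was at 9.72 to 16.95 CPM (median 14.3) and 3.27 to 7.89 CPM (median 5.98), without overlap, and fell, with a change of -1.18 (SE 0.26, adjusted p = 0.00211). Acod1, the itaconate-producing enzyme of activated macrophages, was among the genes named by size, at 50.9 to 131 CPM (median 109) and 12.7 to 34.7 CPM (median 25.5), without overlap, with a change of -1.98 (SE 0.46, adjusted p = 0.00335). Ly6i, a Ly6-family surface protein, was at 2.04 to 7.08 CPM in aPD1 and 0.247 to 2.22 CPM in blocked tumors, with some overlap, and fell, with a change of -2.02 (SE 0.57, adjusted p = 0.0143).

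Coagulation genes moved both ways, with 7 of 14 lower and 3 higher. Thbs1 (thrombospondin 1) was at 71.98 to 308 CPM (median 180.1) and 64.1 to 159 CPM (median 68.7) and fell, with a change of -1.15 (SE 0.22, adjusted p = 0.000568), with aPD1 replicates 2 and 6 inside the range of the blocked tumors, whose highest value came from replicate 5. F10, the gene for coagulation factor X, which macrophages also make, was at 1.69 to 8.57 CPM (median 4.91) and 0.250 to 1.57 CPM (median 1.03), without overlap, and fell, with a change of -2.34 (SE 0.45, adjusted p = 0.000573). Tfpi, the inhibitor of the tissue factor pathway, was at 63.3 to 87.2 CPM in aPD1 and 74.6 to 86.9 CPM in blocked tumors and rose, with a change of 0.25 (SE 0.055, adjusted p = 0.0022). Without aPD1 replicate 4, 4 coagulation genes were called, and without aPD1 replicate 5, 5.

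Rises with GM-CSF blockade were smaller than falls. Kcne3, a regulatory subunit of potassium channels, was the gene with the largest rise by the naming rule, at 1.43 to 3.06 CPM (median 1.67) in aPD1 and 3.55 to 7.16 CPM (median 5.28) in blocked tumors without overlap, a change of 1.48 (SE 0.22, adjusted p = 4.72e-05). Ip6k3, an inositol hexakisphosphate kinase, was at 1.85 to 7.95 CPM (median 4.53) and 8.51 to 14.3 CPM (median 12.7), without overlap, and rose, with a change of 1.29 (SE 0.28, adjusted p = 0.00191). The pore-forming potassium channel gene Kcnj8 rose, with a change of 0.96 (SE 0.21, adjusted p = 0.00162) without overlap. Ddit4 (REDD1), an inhibitor of mTORC1 that is induced by hypoxia, glucocorticoids and energy stress, was at 16.1 to 33.2 CPM (median 22.7) and 35.1 to 56.5 CPM (median 49.9), without overlap, and rose, with a change of 0.98 (SE 0.15, adjusted p = 8.3e-05). It led both the hypoxia and the glucocorticoid list, passed in both sets and kept its call without each tumor. Of 15 glucocorticoid-induced genes 2 rose and 1 fell (median -0.16), 20% called against 13.5% of all genes. Over the fits that left out a tumor, 1 to 3 of them were called.

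The other rises by size given here had groups that overlapped. Acpp, a phosphatase that also makes adenosine outside cells, changed by 1.06 (SE 0.23, adjusted p = 0.00162) and Mest, an imprinted gene of mesoderm, by 1.02 (SE 0.27, adjusted p = 0.00926). Mmp28 (epilysin) changed by 0.96 (SE 0.25, adjusted p = 0.008), Epha3, an ephrin receptor, by 0.96 (SE 0.24, adjusted p = 0.00521) and the transcription factor gene Foxp2 by 0.96 (SE 0.22, adjusted p = 0.00312). Tenm2 (teneurin 2) changed by 1.23 (SE 0.36, adjusted p = 0.0166), with blocked replicate 5 at 11.6 CPM and every other one of the 15 tumors below 5 CPM. It lost its call without aPD1 replicate 1 or 4 or blocked replicate 5 (adjusted p up to 0.0671). The call was also lost in edgeR's fit of the 15 tumors alone (adjusted p = 0.0619). Pou2af1, a coactivator known from B cells, changed by 1.15 (SE 0.36, adjusted p = 0.0261) and lost its call in 5 of the 15 fits that left out a tumor (adjusted p up to 0.0863).

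Stromal, hypoxia and sterol genes held further rises. Dcn (decorin), a proteoglycan of fibroblasts, was at 325 to 571 CPM (median 449) in aPD1 and 617 to 705 CPM (median 643) in aPD1 + aGM-CSF tumors, without overlap, and rose, with a change of 0.53 (SE 0.083, adjusted p = 8.38e-05). The fibroblast list as a whole was divided, with 2 of 12 genes higher and 4 lower, and 3 were called without aPD1 replicate 4 and up to 9 without another tumor. Acta2, the smooth muscle actin of contractile fibroblasts, fell, with a change of -1.53 (SE 0.28, adjusted p = 0.000312). Of 27 hypoxia and glycolysis genes 5 rose and 1 fell (median 0.10), 22.2% called against 13.5% of all genes. The count was 3 without aPD1 replicate 1 and 10 without aPD1 replicate 2. Vegfa, which drives vessel growth, was at 197 to 263 CPM (median 231) and 254 to 363 CPM (median 307), with a change of 0.40 (SE 0.072, adjusted p = 0.000313), and Egln3, an oxygen-sensing prolyl hydroxylase, rose, with a change of 0.63 (SE 0.17, adjusted p = 0.0103).

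Of 18 cholesterol synthesis genes 7 rose and 0 fell (median 0.24). Srebf2, the transcription factor that controls the pathway, rose, with a change of 0.23 (SE 0.058, adjusted p = 0.00586). The count of this list followed the tumors given aPD1 alone, with 2 members called without aPD1 replicate 4 or 6, 3 without aPD1 replicate 5 and 14 without aPD1 replicate 2, and its median was 0.078 in the first set and 0.46 in the second. Of 14 genes of the unfolded protein and amino acid response 1 rose and 1 fell, 14.3% called against 13.5% of all genes (1 to 5 called over the fits that left out a tumor, 6 with the set as a term). The rise was Ddit3 (CHOP), by 0.47 (SE 0.13, adjusted p = 0.013), lost without aPD1 replicate 1 (adjusted p = 0.0549).

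Several programs gave few or no calls, where 13.5% of all genes were called. None of 25 cell cycle genes passed in the model of all 42 tumors (median 0.054, range -0.12 to 0.18) or in DESeq2. Of these genes 3 passed without aPD1 replicate 2 or 3 and with library size scaling, 2 without blocked replicate 1, 1 in the fit of the 15 tumors alone and 4 in the second set alone. The member with the smallest p, the spindle checkpoint kinase Bub1b, had a log2 change of 0.18 (SE 0.068, adjusted p = 0.0738). Of 22 oxidative phosphorylation genes 1 fell, Sdhb, by -0.25 (SE 0.053, adjusted p = 0.00114), and of 12 immediate early and heat shock genes 1, Atf3, by -0.68 (SE 0.24, adjusted p = 0.0461), which was lost in 10 of the 15 fits that left out a tumor. None of 10 endothelial markers passed in the model of all 42 tumors or in DESeq2, while 1 did without aPD1 replicate 2 or blocked replicate 5 and with the set as a term, and 2 in the second set alone, with Pecam1 (CD31) at -0.29 (SE 0.13, adjusted p = 0.118). Of 9 tumor and epithelial markers 0 passed in the model of all 42 tumors, 0 to 1 over the fits that left out a tumor, 1 with the set as a term, in the 15 tumors alone and in the second set, and 2 in DESeq2, with Shisal2b at 0.49 (SE 0.18, adjusted p = 0.0647). The 6 tested mast cell and eosinophil markers gave 0 calls in both tools and in each fit that left out a tumor, with Mcpt4 at -1.11 (SE 0.49, adjusted p = 0.129).

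The summed skeletal muscle list was 1.03 to 921 CPM in aPD1 tumors, highest in replicate 3, and 1.67 to 256 CPM in aPD1 + aGM-CSF tumors, and 0 of 10 members passed, with Mylpf, a myosin light chain, at -1.77 (SE 0.70, adjusted p = 0.0863). With the set as a term 3 of them passed, and 2 passed without aPD1 replicate 2 and 1 without blocked replicate 8. Skin keratinocyte markers summed to 9.19 to 43.8 CPM, highest in aPD1 replicate 2, and to 7.62 to 12.0 CPM under blockade. Krt1, listed among them, was at 0 in 4 of 6 aPD1 tumors and 8 of 9 blocked tumors, and its fitted change was -4.92 (SE 1.27, adjusted p = 0.00797). This call was lost in DESeq2 (adjusted p = 0.433), and the gene was not tested without aPD1 replicate 2. Adipocyte markers summed to 24.2 to 125 and 30.7 to 72.0 CPM. Of 10 members 2 fell, 20% called against 13.5% of all genes, or 1 without aPD1 replicate 3, 4 or 6. In aPD1 replicates 3 to 6 this sum was at 95.6, 125, 120.2 and 113 CPM, above every blocked tumor, and in the second set the groups did not overlap. One of these, Lpl (lipoprotein lipase, also made by macrophages), changed by -0.85 (SE 0.22, adjusted p = 0.00813) and was lost without aPD1 replicate 4 (adjusted p = 0.0811). Erythroid markers summed to 13.7 to 653 and 28.8 to 90.7 CPM, highest in aPD1 replicate 3, and 0 of 4 passed, with Alas2, the heme synthesis enzyme of red cells, at -1.26 (SE 0.62, adjusted p = 0.178). The part of these tissues in the differences above was not tested. Leaving out aPD1 replicate 3, the tumor with the most muscle and erythroid signal, gave 2374 called genes, and leaving out aPD1 replicate 2 gave 2967.

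**Figure D3:**
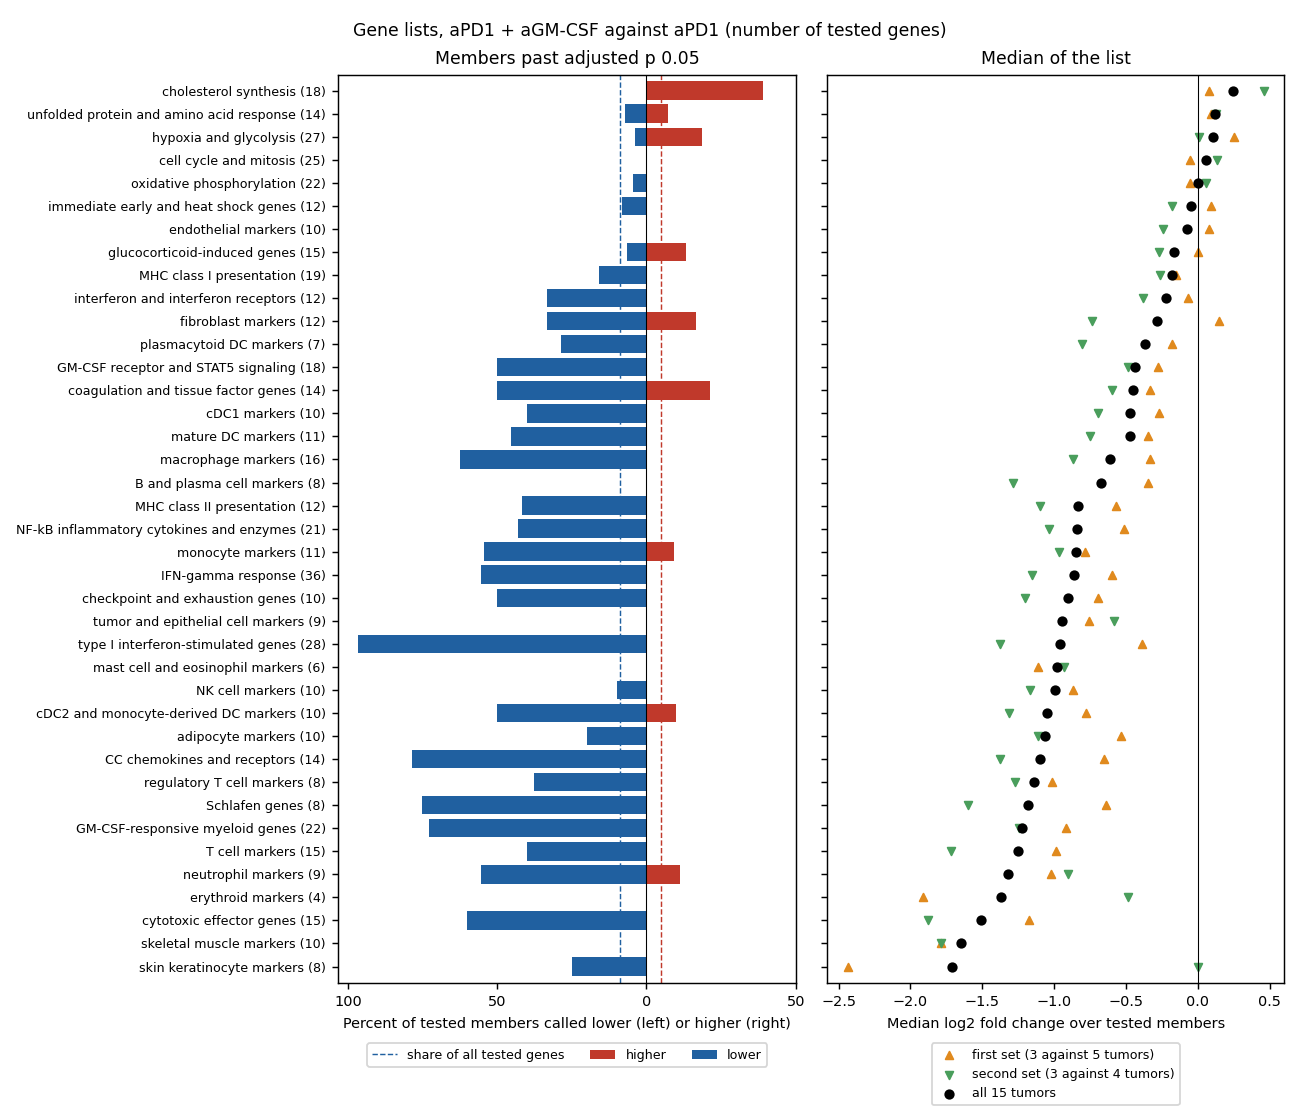
The left panel gives, for each of 39 gene lists, the percentage of tested members that fell (blue, to the left) or rose (red, to the right), with dashed lines at the 8.75% and 4.77% of all tested genes. The right panel gives the median log2 fold change of each list over all 15 tumors (black) and within the first (up triangles) and second set (down triangles), and the type I interferon list, with 27 of 28 members lower, stands at -0.39 and -1.38 in the sets.

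The count of calls moved more when an aPD1 tumor was left out than when a blocked one was. The aPD1 group held 6 tumors and the blocked group 9, so each aPD1 tumor was a larger part of its group. The part of group size in this was not tested. Leaving out an aPD1 + aGM-CSF tumor gave between 1955 and 2229 genes, and leaving out an aPD1 tumor between 1199 and 2967. Among tumors of the first set, 27 genes were called (0.155%, with 0.0862% higher and 0.069% lower) and 2350 had an unadjusted p under 0.05. Among those of the second set 2736 were called (16.4%, with 5.28% higher and 11.1% lower). With library size alone in place of TMM, 55.6% of calls were rises against 35.3% with TMM, and the median of all genes was 0.065. With the size factors of DESeq2, 715 genes were higher and 1541 lower, and in the first set alone, with TMM, 15 were higher and 12 lower.

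**Figure D4:**
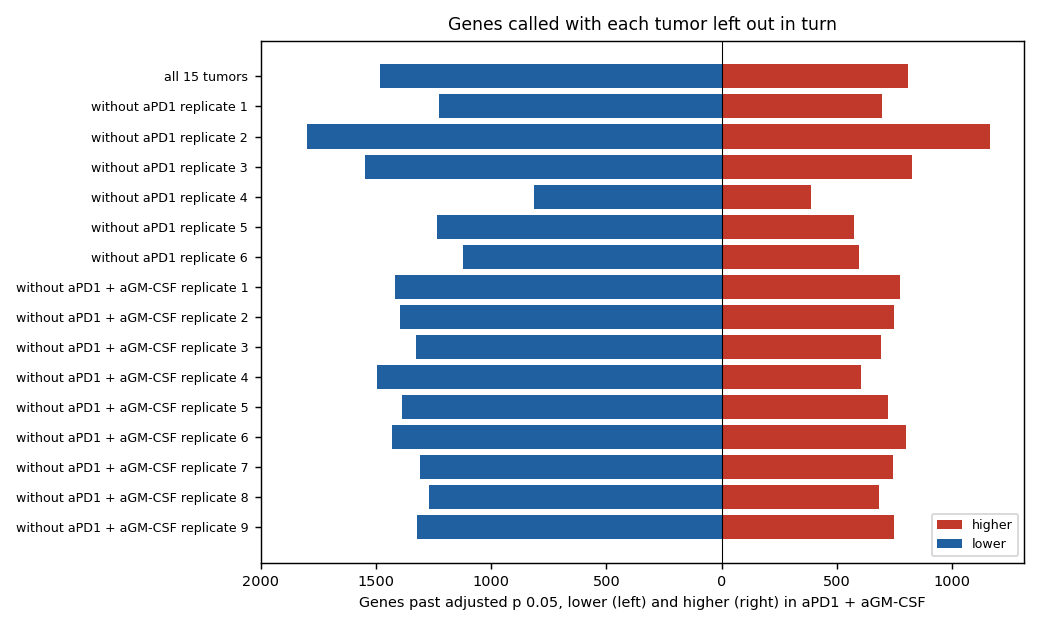
Number of genes past an adjusted p of 0.05 that were lower (blue, to the left) or higher (red, to the right) in aPD1 + aGM-CSF, with all 15 tumors and with each left out in turn. Without aPD1 replicate 4 the bars are shortest (813 lower, 386 higher) and without aPD1 replicate 2 longest (1801 lower, 1166 higher), and the 9 lower rows, without a blocked tumor, stay between 1955 and 2229 in all.

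A second comparison of tumors with and without aGM-CSF was made in mice that also received aIL2RB, which used none of the 15 tumors. There, 1 gene passed (0.00591%), the autophagy gene Tecpr2, which was higher, at 0.27 (adjusted p = 0.0303), and 1212 were at an unadjusted p under 0.05. The test of the difference between the effect of aGM-CSF without and with aIL2RB called 1412 genes (8.34%), 517 (3.05%) with a more positive and 895 (5.29%) with a more negative effect without aIL2RB. In this count 609 genes were left without aPD1 replicate 4 and 1888 without aPD1 replicate 2.

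Interferon genes were among these, with 24 of 28 type I interferon-stimulated genes and 6 of 8 Schlafen genes called, against 8.34% of all genes. The log2 fold change of Oasl1 was 0.13 (SE 0.19) under aIL2RB and the difference was -1.75 (SE 0.30, adjusted p = 0.000743). For Slfn1 the value under aIL2RB was 0.26 (SE 0.26) and the difference -2.25 (SE 0.41, adjusted p = 0.001), and for Irf7 these were 0.31 (SE 0.20) and -1.84 (SE 0.31, adjusted p = 0.000743). Among macrophage markers 8 of 16 differed, for example Lyz2, with -0.092 (SE 0.095) under aIL2RB and a difference of -0.74 (SE 0.15, adjusted p = 0.00265). Of the IFN-γ response genes 3 of 36 differed, a share close to that of all genes. Cd274, at -0.22 (SE 0.23) under aIL2RB, was not among them, with a difference of -0.95 (SE 0.36, adjusted p = 0.0915). The granzymes had wide errors, with Gzmf at 0.91 (SE 0.75) under aIL2RB and a difference of -3.49 (SE 0.96, adjusted p = 0.0198). The mean level of Gzmf was 0.728 CPM in aPD1 + aIL2RB tumors and 1.40 CPM with aGM-CSF added. For Oasl1, Slfn1, Irf7, Lyz2 and Cd274, mean levels in aPD1 + aIL2RB tumors were nearer those of aPD1 + aGM-CSF than of aPD1 tumors. Slfn1 was at 33.74 CPM in aPD1, 8.47 CPM in aPD1 + aGM-CSF and 9.15 CPM in aPD1 + aIL2RB tumors. In the same order, Irf7 was at 118.2, 40.98 and 44.46 CPM and Lyz2 at 1563, 878.2 and 939.2 CPM. Whether these levels account for the small estimates under aIL2RB was not tested.

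Some GM-CSF-responsive genes had a negative estimate in both settings. Clec4n was at -0.46 (SE 0.14) under aIL2RB and differed between the settings by -0.82 (SE 0.23, adjusted p = 0.0197). Ccl22 was at -1.10 (SE 0.42) under aIL2RB, and the difference was -0.68 (SE 0.63, adjusted p = 0.56), which did not pass. The list as a whole had a median of -0.098 under aIL2RB, beside -1.23 without it. Of its 22 members 7 differed, against 8.34% of all genes. Among rises, Kcne3 was at -0.074 (SE 0.16) under aIL2RB and differed by 1.55 (SE 0.27, adjusted p = 0.000794). Ddit4 was at -0.051 (SE 0.12) and differed by 1.03 (SE 0.19, adjusted p = 0.00153), and Dcn was at -0.043 (SE 0.066) and differed by 0.57 (SE 0.11, adjusted p = 0.00141). Mean Kcne3 was 1.88 CPM in aPD1, 5.24 CPM in aPD1 + aGM-CSF and 6.76 CPM in aPD1 + aIL2RB tumors. In the same order, Ddit4 was at 24.3, 47.74 and 46.86 CPM and Dcn at 450.3, 649.8 and 857.9 CPM.

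**Figure D5:**
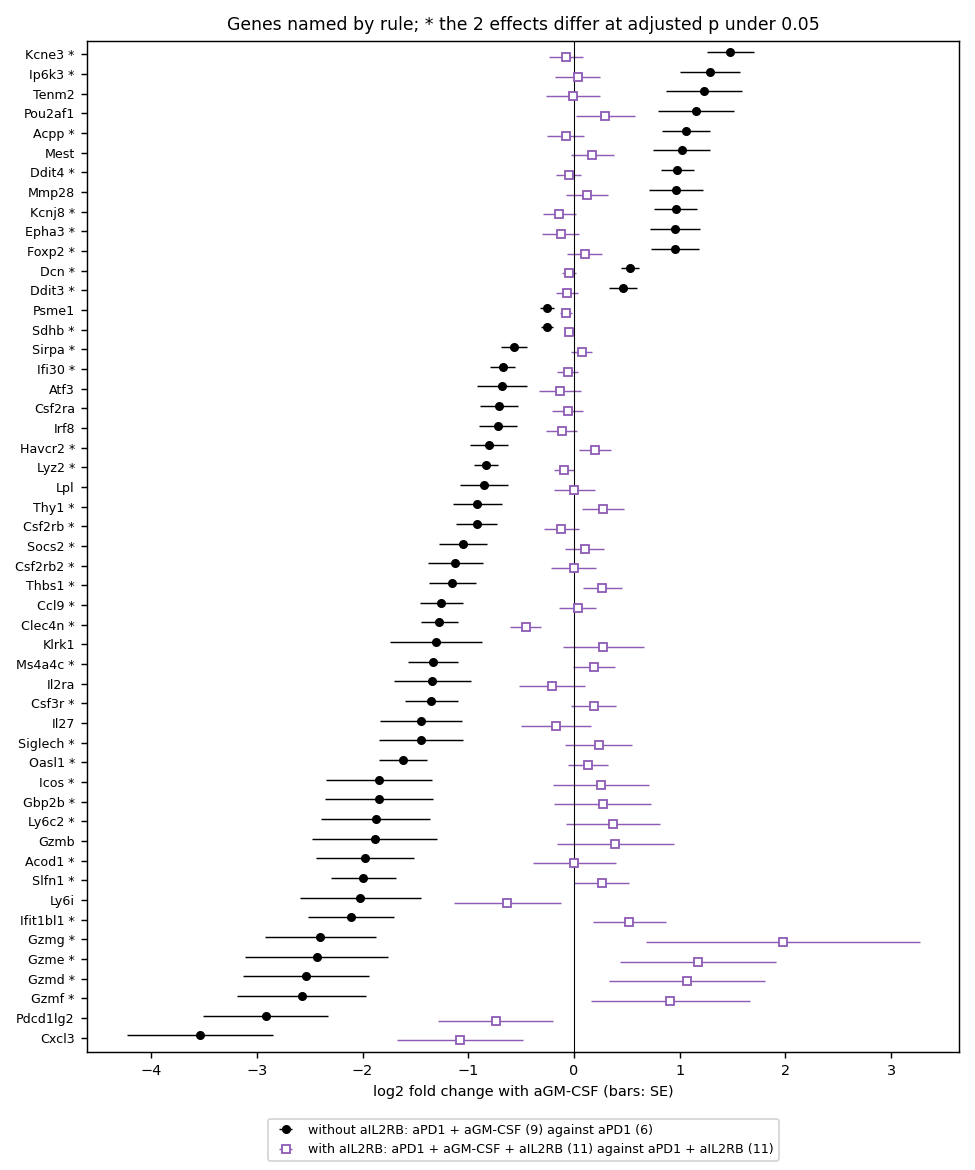
Log2 fold change with aGM-CSF, with its SE as a bar, for the called genes named by the rule and reported here, except Krt1, without aIL2RB (black circles, 9 against 6 tumors) and with aIL2RB (open squares, 11 against 11 tumors). Most squares lie near 0, the granzymes Gzmd, Gzme, Gzmf and Gzmg lie above it with wide bars, and an asterisk marks genes whose difference between the settings passed.

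Isotype-treated tumors, which received neither aPD1 nor aGM-CSF, are given beside these values as levels only. In the 5 isotype tumors Clec4n was at 20.4 to 27.1 CPM, between the medians of 36.3 in aPD1 and 15.8 in blocked tumors. Oasl1 was at 8.37 to 13.5 CPM, Slfn1 at 8.03 to 10.4 CPM and Cd274 at 49.8 to 74.99 CPM, ranges that overlap those of the aPD1 + aGM-CSF group. Lyz2 was at 971 to 1168 CPM, above every aPD1 + aGM-CSF tumor and overlapping the aPD1 group. Kcne3 was at 4.58 to 5.38 CPM, Ddit4 at 27.2 to 54.6 CPM and Dcn at 468 to 658 CPM.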

How the data were processed

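Bulk poly(A) RNA-seq was made from 42 MC38 tumors in 5 treatment groups, and groups were taken from the sample labels. The deposited values are expected counts per gene, which the authors estimated with gbrs, summed over haplotypes, from paired-end reads mapped with Bowtie 1.2.3 to transcriptomes of the founder strains. The submitters' processing notes name mm10 and GRCm38. The table held 26811 genes, 182 of them without a symbol, and 15.2% of the deposited expected counts were not whole, so all were rounded.

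Counts were tested with edgeR 4.0.16 in R 4.3.3 (quasi-likelihood test, TMM scaling, filterByExpr with min.count 10 and min.total.count 15) in 1 model of the 42 tumors, which share an estimate of the spread, with Benjamini-Hochberg adjustment over 16932 genes and a threshold of 0.05. The difference without and with aIL2RB was a contrast of that model. The difference between sets came from a separate model of the 42 tumors with a term for each combination of group and set. CPM are TMM-scaled, and log2 CPM used a prior count of 2. Totals of 15109227 to 24101674 in the 15 tumors set the precision, with 7155486 in the shallowest of the 42 (aPD1 + aGM-CSF + aIL2RB replicate 4), and estimated counts near 0 are the least certain. On simulated counts for this comparison over 16932 genes, 100 of 100 genes changed by a log2 of 2 and 94 of 100 changed by a log2 of 1 were recovered, and 18 unchanged genes were called. The changed genes were drawn only from those above a floor of expected counts, and the simulated tumors held no sets. Recovery of genes at low counts was therefore not tested.

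Treatment groups were taken from the labels alone. The comparison, the 2 sets and all 39 gene lists (531 genes, 510 tested) were chosen with earlier results of these data known. No set or list is therefore independent evidence. Named genes were the 12 with the largest called change in each direction (mean log2 CPM of at least 1, same direction in both sets), Csf2 and its receptor genes, and the member of each list with the smallest p. A few genes that met these rules are not reported here but stay in the fits and counts. The other genes given as examples were chosen after their values were seen. Alternatives were DESeq2 1.42.0, its size factors, library size scaling, 2 other filters, the 15 tumors alone, the replicate number as a block, the sets as a term or alone, removal of 5 ribosomal RNA genes and leaving out each tumor. Figures were drawn with matplotlib 3.10.9 in Python 3.11.15. Promoter sequences are those of RefSeq for GRCm38.p6.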

Additional observations from a re-analysis of the deposited data

Results flagged for a closer look

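Single tumors stood apart from the rest of their group for 12 of 252 combinations of gene and group that were checked, where chance gives about 1 in 20. In aPD1 tumors these were Kcne3 in replicate 2 (3.06 CPM, the others 1.43 to 1.86) and Alas2 in replicate 3 (9.25 CPM, the others 1.03 to 2.18). In aPD1 + aGM-CSF tumors, replicate 5 was low for Oasl1 (7.77 CPM), Ccl7 (9.00 CPM) and Prf1 (3.14 CPM). Replicate 8 was low for Cd274 (32.3 CPM), Slfn8 (17.7 CPM) and F10 (0.250 CPM). Replicate 4 was high for the T cell genes Cd3e (9.59 CPM) and Pdcd1 (10.6 CPM) and low for Fabp5 (13.9 CPM), and replicate 2 was the single blocked tumor with counts of Krt1 (0.607 CPM).

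The effect of aGM-CSF differed between tumors without and with aIL2RB for 1412 genes in edgeR's test of the difference, given here as the log2 effect without minus the effect with aIL2RB. Among genes given here by size it was more positive without aIL2RB for Kcne3 (1.55), Ip6k3 (1.25), Acpp (1.14), Ddit4 (1.03), Kcnj8 (1.10), Epha3 (1.08) and Foxp2 (0.86). It was more negative for the granzyme genes Gzmf (-3.49), Gzmd (-3.60), Gzme (-3.61) and Gzmg (-4.38), and for Ifit1bl1 (-2.63), Slfn1 (-2.25), Acod1 (-1.98), Ly6c2 (-2.25), Gbp2b (-2.12) and Icos (-2.10). The granzyme differences rest on low levels under aIL2RB. Gzmg had a mean of 0.0498 CPM with aPD1 + aIL2RB and 0.264 CPM with aGM-CSF added, and its difference had an SE of 1.39. Among receptor and myeloid genes the effect was more negative for Csf2rb (-0.80), Csf2rb2 (-1.12), Socs2 (-1.15), Clec4n (-0.82), Lyz2 (-0.74), Ms4a4c (-1.52), Csf3r (-1.53), Sirpa (-0.64) and Siglech (-1.68). The same held for Oasl1 (-1.75), Ccl9 (-1.29), Thbs1 (-1.42), Ifi30 (-0.61), Sdhb (-0.21), Thy1 (-1.19), Havcr2 (-1.01) and Igkc (-2.58). It was more positive for Ddit3 (0.53), Dcn (0.57) and Shisal2b (0.79).

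The difference between the sets passed for 1 gene, Galnt15, whose effect in the second minus the first set was -2.50 on the log2 scale.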

How the results depend on the processing

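All counts here are genes at an adjusted p under 0.05 out of those tested. The 2289 genes called with all tumors (807 higher, 1482 lower) became 27 (15 higher, 12 lower) in the first set alone. With library size scaling 1402 were higher. Leaving out a tumor gave 1199 to 2967 genes, 386 to 1166 of them higher and 813 to 1801 lower. The difference between sets gave 1 gene (1 lower) and 4 (4 lower) when genes with a total of at least 5 counts were tested. The difference without and with aIL2RB gave 1412 genes (517 higher, 895 lower), with 325 higher under that same filter, and 609 to 1888 on leaving out a tumor, 212 to 690 of them higher and 397 to 1198 lower, with the lowest of all these ranges without aPD1 replicate 4 and the highest without aPD1 replicate 2. The cause of these shifts was not tested.

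Replicate numbers recur in the groups, but the labels do not say that a number marks a shared mouse, litter or day. Deviations of tumors with the same number correlated at -0.018 to 0.137 and 1 of the 6 numbers matched best with its own. With so few pairs, these values do not settle whether a number marks anything shared. With the replicate number as a block, 2073 genes (834 higher, 1239 lower) were called, the difference without and with aIL2RB gave 834 genes (468 lower), and the lists that moved by more than 1.5 times were the T cell markers (2 called), cytotoxic effector genes (4), interferons and their receptors (2), MHC class II genes (3), NK cell markers (0) and immediate early genes (0), beside 1 cell cycle gene, 1 B cell marker and 2 tumor and epithelial markers newly called. The comparison under aIL2RB gave 0 in place of 1 (0 in place of 1 higher).

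Of the log2 fold changes of named genes under all alternatives, 3038 kept their direction and side of the threshold, 164 no longer passed, 52 newly passed and 2 reversed. These 2 were Tecpr2, at 0.04 with all tumors and -0.035 in the second set, and Galnt15, at -0.61 and 0.43 in the first set. Other scaling factors, filters on low counts, DESeq2 and a fit of the 15 tumors alone gave 2061 to 2548 genes, the set as a model term 2785 and the second set alone 2736. Medians of lists also moved between the sets. In the first and second set they were -0.34 and -0.87 for macrophage markers and -0.60 and -1.16 for IFN-γ response genes. Depth limits statements on genes at few counts, where a count of 0 allows up to 3. Among these were Csf2, Krt1, Cxcl3 and S100a9, and under aIL2RB Gzmd, Gzme, Gzmf and Gzmg.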
